A study of Mus musculus with 3 samples.

Results

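The Hedgehog pathway was followed through 10 genes in embryonic mouse kidney: the ligand gene Shh, the receptor gene Ptch1, the signal transducer gene Smo, the transcription factor genes Gli1, Gli2 and Gli3, the co-receptor genes Boc, Cdon and Gas1, and the ligand-trap gene Hhip. They were taken by name from a fixed list, and all 10 are among the 17864 gene symbols shared by the 3 count tables. The kidneys came from wild-type E14.5 embryos (the age is counted in days from mating), of a mixed strain that is mostly CD-1 with 129, with no treatment or mutant group. Single cells were profiled once each by Drop-seq, by 10x Chromium and by Fluidigm C1, so each platform is 1 library with no replicate of its own. Drop-seq and 10x values count unique molecular identifiers (UMIs, which tag single transcript molecules), while C1 values count reads, for which no molecular identifier is stated. The labels do not say how many embryos went into a library.

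In Hedgehog signalling the receptor PTCH1 holds the membrane protein SMO inactive until a Hedgehog ligand binds PTCH1. Active SMO then changes the processing of GLI2 and GLI3, and Gli1, Ptch1 and Hhip are switched on as common readouts in responding cells. In the developing kidney and ureter, Shh is known from the epithelium of the collecting system and ureter, and the responding cells are known from the mesenchyme around it, including the precursors of ureteric smooth muscle.

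After filtering, 1964 Drop-seq cells, 2130 10x cells and 883 C1 cells remained, with median counts of 7060 UMIs, 7369 UMIs and 166712 reads per cell. No cell name was shared between libraries. Clusters were named from marker genes, so each class below is a ureteric-like, stroma-like or other marker-defined class, and the suffix is left out from here on. Ureteric epithelium (the branching duct that becomes the collecting system) had 175 Drop-seq, 154 10x and 87 C1 cells, and stroma (the interstitial mesenchyme) had 448, 816 and 247. The ureteric class includes clusters led by keratin genes such as Krt19, of 16 Drop-seq and 37 10x cells. These had no ureteric marker among their 10 leading genes and may not be branching duct. The summed level of 9 ureteric markers was 2850, 4275 and 3984 CPM (counts of a gene per 1000000 counts of the class) in ureteric cells and 120, 66.4 and 119 in stroma. In Drop-seq nephron epithelium it was 525 CPM. Clusters were named by these same markers, so the sums describe the labels and do not test them. In C1, 140 cells (15.9%, 95% Clopper-Pearson interval 13.5 to 18.4%) formed a cluster that no marker list named. CPM intervals below are exact 95% Poisson intervals, and all intervals cover counting error only. For C1 the CPM intervals treat each read as independent. Reads may be copies of the same molecule, so these intervals can be too narrow.

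Shh, which encodes the main Hedgehog ligand of the urinary tract (ENSMUSG00000002633, chr5:28456815-28467256, minus strand, GRCm38), was counted almost only in ureteric epithelium in Drop-seq and 10x, and less strictly so in C1. Its 27 Drop-seq UMIs there, in 9 cells, gave 12.7 CPM (8.38 to 18.5). The 10x library had 7 UMIs in 4 cells, 5.08 CPM (2.04 to 10.5), and C1 had 28 reads in 2 cells, 1.68 CPM (1.12 to 2.43). Stroma and cap mesenchyme, the nephron progenitors, had no Shh UMI in either droplet library. A stromal count of 0 allows up to 0.817 CPM in Drop-seq and 0.517 CPM in 10x (3 counts of the class total). Outside ureteric cells, Drop-seq held 2 UMIs in 1 distal tubule cell and 1 in an endothelial cell, 10x held 1 UMI in an endothelial cell, and C1 held 7 reads in 1 stromal cell, 3 in 1 nephron cell and 1 in the unnamed cluster.

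Shh shares 807 of its 2847 exonic bases with opposite-strand genes, 446 with 9530036O11Rik and 361 with Gm26894. In 10x these were ureteric as well, with 10 of 13 and 7 of 7 UMIs in that class. In Drop-seq 9530036O11Rik had 5 of 18 UMIs in ureteric cells and Gm26894 4 of 8. As the sources used here do not say whether the counting used strand, reads of Shh and of these genes cannot be told apart within the shared bases.

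A single barcode carried much of the Drop-seq signal. It held 19 of the 27 ureteric Shh UMIs and 325686 UMIs in all, the highest total of the library, and the Drop-seq ureteric level without the 5 barcodes of highest count was 4.58 CPM. In C1, 25 of the 28 ureteric reads came from 1 cell. Thinned to 4000 UMIs per cell, 2.87% of 174 Drop-seq ureteric cells and 2.22% of 135 10x ureteric cells had a Shh UMI (5.14% and 2.60% unthinned). Endothelium, which should lack it, had 0% of 102 Drop-seq cells and 0.289% of 346 10x cells with one at the same depth (0.980% and 0.261% unthinned). Median depths were 7482 and 8154 UMIs in ureteric cells against 6910 and 8637 in endothelium. Shh did not pass the filter on low counts. In a fit without that filter, Shh was lower in stroma than in ureteric epithelium by a fitted log2 change of -4.98 (SE 1.65, n = 3 libraries, lower in 3 of 3), and edgeR's quasi-likelihood test gave an adjusted p of 0.0614, which does not pass 0.05.

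Within ureteric epithelium Shh had few UMIs in any cluster. In Drop-seq, 23 of the 27 UMIs fell in a cluster of 16 cells led by Krt19, a keratin of duct and urothelial cells, and Upk3a, a urothelial membrane protein, at 53.3 CPM. The larger cluster of 159 cells led by Calb1, a marker of the ureteric tree, held 4 UMIs at 2.36 CPM. Without the barcode of 19 UMIs the small cluster kept 4 UMIs in 4 cells. The larger cluster had its 4 UMIs in 4 of 159 cells, at a median depth of 7647 UMIs against 5793 in the small one. A level of the small cluster without that barcode was not computed. In 10x the related Krt19 cluster of 37 cells held 2 UMIs (8.05 CPM, 0.9746 to 29.1) and the Calb1 cluster of 117 cells held 5 (4.43 CPM, 1.44 to 10.3), and these intervals overlap. Cells were also split by tip markers (Ret or Wnt11, genes of the branching tip) and trunk markers (Wnt7b or Aqp2). Drop-seq had 2 Shh UMIs in 95 tip-marked cells (1.79 CPM, 0.217 to 6.48), 3 in 16 trunk-marked cells (21.9 CPM, 4.51 to 64.0) and 19 in 8 cells with both kinds, all from the barcode above. In 10x there were 5 UMIs in 71 tip-marked cells (6.67 CPM, 2.17 to 15.6) and none in 31 trunk-marked cells (upper bound 16.04 CPM), and in C1 25 reads in 40 tip-marked cells (2.75 CPM, 1.78 to 4.06) and 3 in 4 trunk-marked cells (6.61 CPM, 1.36 to 19.3). The tip and trunk intervals overlap in each library, so no order is shown.

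**Figure D1:**
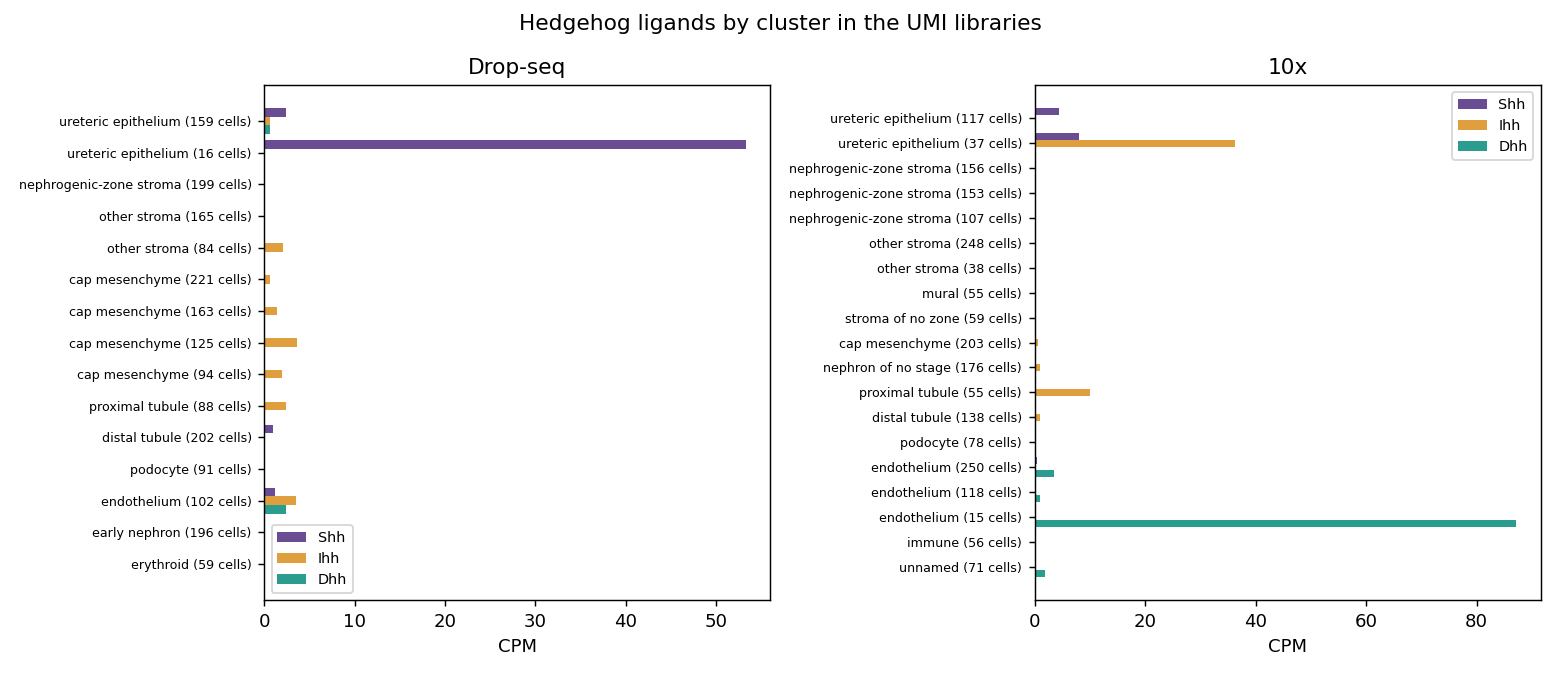
Level in CPM (horizontal axis) of the 3 Hedgehog ligand genes in each cluster of the Drop-seq library (left) and the 10x library (right), with cells per cluster in brackets. Shh was highest in the Drop-seq ureteric cluster of 16 cells (53.3 CPM), Ihh in the 10x ureteric cluster of 37 cells (36.2 CPM) and Dhh in the 10x endothelial cluster of 15 cells (87.2 CPM).

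The other two ligand genes had places of their own in the 10x library. Ihh, the Indian hedgehog gene, had 17 UMIs in 10x, of which 9 were in 4 cells of the ureteric Krt19 cluster (36.2 CPM, 16.6 to 68.7) and 4 in proximal tubule (10.1 CPM). In Drop-seq its 16 UMIs lay in 16 different cells, 8 of them cap mesenchyme cells, and only 1 was ureteric. C1 had 11 Ihh reads in all. Dhh, the desert hedgehog gene, known from endothelium and Schwann cells, had 17 of its 18 10x UMIs in endothelium (4.605 CPM), spread over 16 cells. Of these, 7 UMIs fell in an endothelial cluster of only 15 cells led by Gja4, Gja5 and Sox17, genes of arterial endothelium, at 87.2 CPM. Drop-seq had 2 of 3 Dhh UMIs in endothelium, and C1 had 78 reads in 1 endothelial cell and 61 in 1 cell of the unnamed cluster. Dhh was lower in stroma than in endothelium by a log2 change of -8.44 (SE 1.67, n = 3 libraries, edgeR adjusted p = 0.00419). It had no stromal count in any library, so the size of that fitted change depends on the fit's prior and is no bound. Dhh shares 1653 of its 4399 exonic bases with other genes, 1107 of them with an antisense gene, and the sources used here do not say whether the counting used strand.

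Ptch1, the Hedgehog receptor gene and itself a Hedgehog target (ENSMUSG00000021466, chr13:63508328-63573598, minus strand), differed more between platforms than between classes. In 10x it had 30.3 CPM in stroma (26.0 to 35.2; 176 UMIs), 20.01 in cap mesenchyme, 17.7 in nephron epithelium, 17.4 in ureteric epithelium and 14.4 in endothelium (10.8 to 18.8). The stromal interval lies above those of nephron epithelium, endothelium and, by a narrow gap, ureteric epithelium (11.2 to 25.9), and it overlaps that of cap mesenchyme (13.9 to 27.8). In Drop-seq, 3 UMIs in stroma gave 0.817 CPM, 4 in cap mesenchyme gave 0.826 CPM, and ureteric epithelium had none. In C1 the highest of these classes was cap mesenchyme at 4.54 CPM, where 52 of 148 reads came from 1 cell, against 1.52 CPM in stroma and 0.300 CPM in ureteric epithelium. Ptch1 passed in none of the 5 comparisons described below, and its fitted stroma-to-ureteric log2 difference was 1.34 (95% interval 0.01 to 2.67, edgeR adjusted p = 0.164).

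The 10x Ptch1 signal had a peak within stroma. A cluster of 59 cells held 33 Ptch1 UMIs at 96.6 CPM (66.5 to 136), above the intervals of all other 10x clusters except a 15-cell endothelial cluster with 2 UMIs (24.9 CPM, upper bound 90.0). It was led by the smooth muscle and matrix genes Actg2, Cnn1, Myh11, Acta2, Mylk and Lum, by Car3 and by Tbx18, the transcription factor of ureteric mesenchyme, and it was given no stromal zone because mural (vessel wall) markers stood ahead of zone markers among its leading genes. At 4000 UMIs per cell, 28.0% of 50 of its cells had a Ptch1 UMI (16.2 to 42.5%; 35.6% of 59 unthinned), against 6.94% of 346 endothelial cells (13.1% of 383 unthinned). Median depth was 5549 UMIs in the cluster and 8637 in endothelium, so the cells with the higher share were the shallower. No member took part in the clustering, but Tbx18, Acta2 and the other leading genes describe the cluster and are no finding about it.

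Hhip had its highest 10x cluster level in the same 59 cells, and Gli1 was within the range of other stromal clusters. Gli1 stood at 29.3 CPM (14.03 to 53.8) and Hhip at 20.5 CPM (8.23 to 42.2), which is 7 of the 17 Hhip UMIs of the whole 10x library. The next Hhip level of a 10x cluster was 3.43 CPM in a nephrogenic-zone stromal cluster, from 3 UMIs, and its interval (0.707 to 10.01) overlaps that of the 59 cells. Gli1 in these 59 cells did not stand above its level in the clusters of other stroma, 22.4 CPM (15.9 to 30.8) in a cluster of 248 cells and 31.1 CPM in one of 38. Gli3 was 52.7 CPM (31.2 to 83.2) and Boc 52.7 CPM, while Cdon had no UMI there (a count of 0 allows up to 8.78 CPM). Of genes known to respond to Hedgehog in mesenchyme, Foxf1 had 28 of the 30 stromal 10x UMIs in this cluster (81.9 CPM), Foxl1 had 13 of 53 (38.0 CPM) and Bmp4, a growth factor of the ureter wall, had 63 of 194 (184 CPM). In Drop-seq and C1 the stromal clusters highest in Ptch1 had 1.23 and 3.45 CPM. The nearest by leading genes, a Drop-seq cluster of 84 cells led by Car3, Lum and Tagln, had 1 Ptch1 UMI, 7.15 CPM of Gli1 and 4.09 CPM of Hhip, with Tbx18 at 25.5 CPM against 395 in the 10x cluster.

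**Figure D2:**
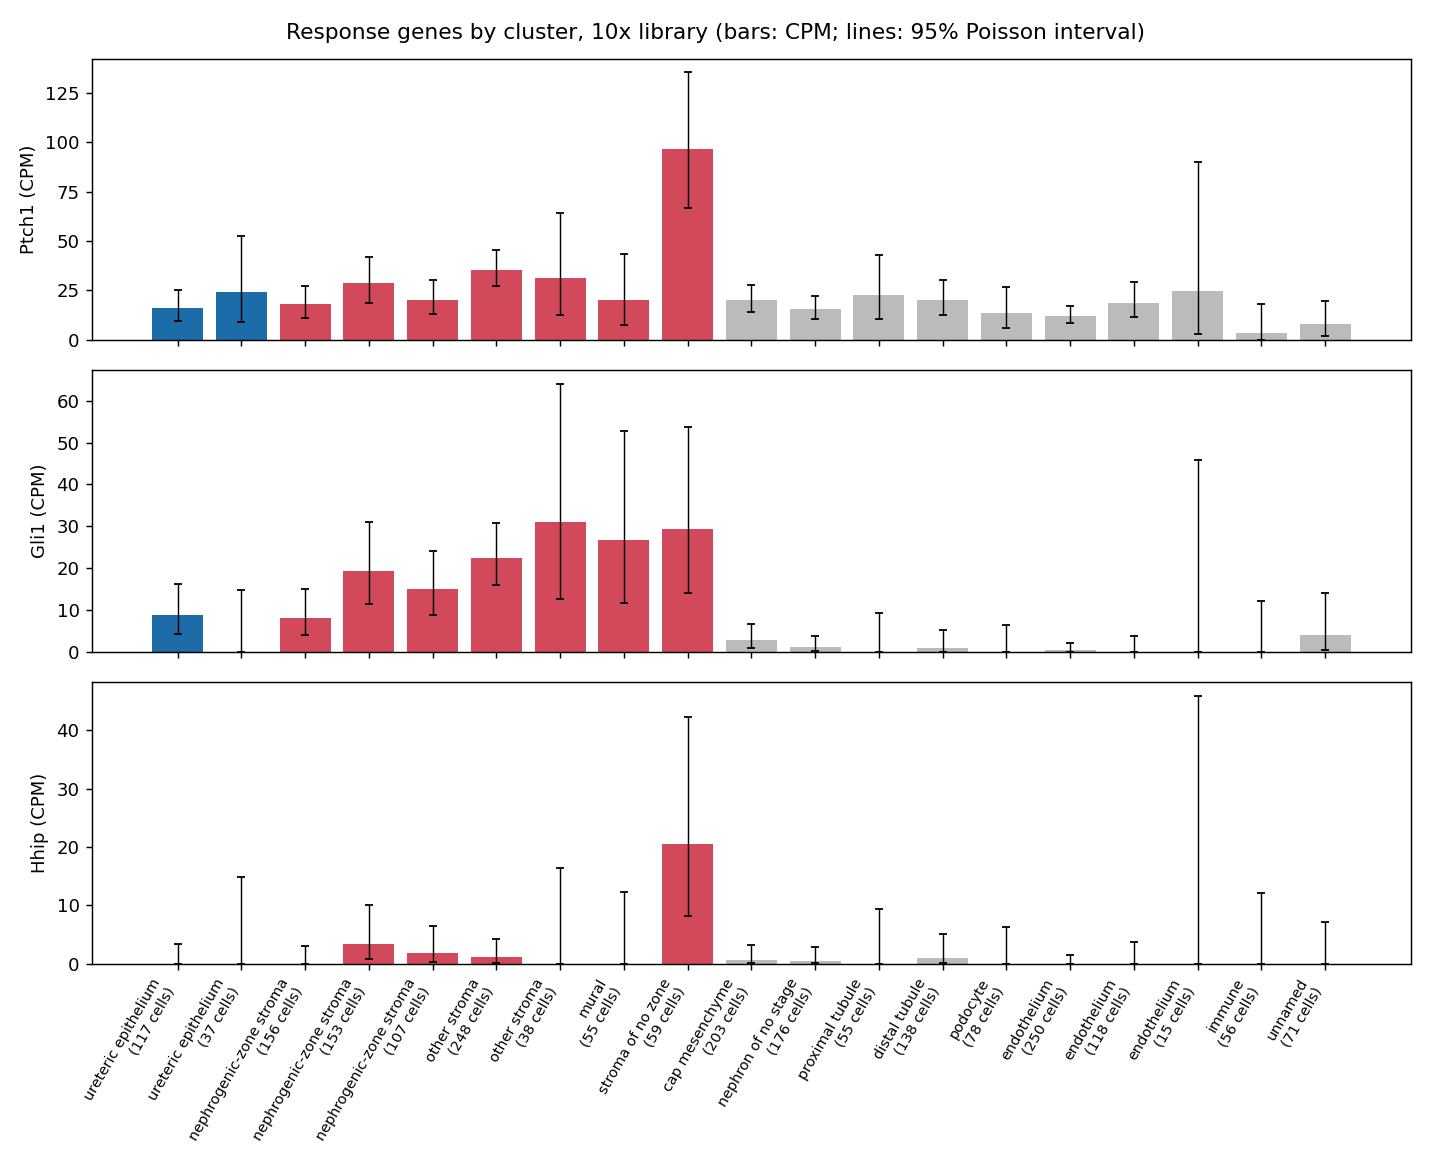
Levels of Ptch1, Gli1 and Hhip in CPM (vertical axes) in each 10x cluster, with stromal clusters in red, ureteric clusters in blue and others in grey, and lines for the 95% Poisson interval. The stromal cluster of 59 cells stands highest for Ptch1 (96.6 CPM) and Hhip (20.5 CPM), while Gli1 is spread over the stromal clusters.

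Among 10x clusters, Ptch1 and Hhip were both highest in the stromal cluster of 59 cells. Among classes, Gas1 was highest in cap mesenchyme. The promoters of these 3 members are shown. Each is the 250 bases before the RefSeq start (GRCm38.p6), printed 5′ to 3′ on the gene's strand, all minus: chr13:63565736-63565985 for Ptch1, chr8:80058009-80058258 for Hhip and chr13:60177536-60177785 for Gas1. Capitals mark the stretch closest to the GLI binding motif GACCACCCA on either strand. The Ptch1 window lies within the gene span of a longer annotated form, in no annotated exon, and the Gas1 window overlaps an exon of a gene on the opposite strand.
Ptch1: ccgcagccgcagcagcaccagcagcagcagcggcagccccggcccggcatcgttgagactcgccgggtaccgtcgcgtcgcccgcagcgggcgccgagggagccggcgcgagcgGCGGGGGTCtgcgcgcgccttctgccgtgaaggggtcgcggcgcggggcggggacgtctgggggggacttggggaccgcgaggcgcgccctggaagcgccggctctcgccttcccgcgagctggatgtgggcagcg
Hhip: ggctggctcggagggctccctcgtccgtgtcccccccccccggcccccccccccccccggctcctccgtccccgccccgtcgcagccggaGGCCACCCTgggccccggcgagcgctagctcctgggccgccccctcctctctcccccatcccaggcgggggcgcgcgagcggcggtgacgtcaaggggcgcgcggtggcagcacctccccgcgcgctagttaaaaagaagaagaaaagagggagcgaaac
Gas1: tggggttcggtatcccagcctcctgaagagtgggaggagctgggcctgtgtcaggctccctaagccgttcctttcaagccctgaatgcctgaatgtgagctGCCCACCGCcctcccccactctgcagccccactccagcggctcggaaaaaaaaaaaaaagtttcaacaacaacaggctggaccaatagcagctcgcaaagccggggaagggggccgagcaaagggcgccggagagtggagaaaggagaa
The closest stretch matches 6 of the 9 letters in Ptch1, 7 in Hhip and 6 in Gas1. No window of the 7 members with a RefSeq entry held the full motif, which 0.225% of all 32851 such windows hold, and 51.8% of all windows hold a stretch of 7 or more matching letters. A match of 7 letters or fewer is therefore common among promoters.

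Gli1, a transcription factor gene that is both an effector and a target of the pathway (ENSMUSG00000025407, chr10:127329882-127341974, minus strand), was highest in stroma in all 3 libraries. Stromal levels were 16.3 CPM (12.5 to 21.04) in Drop-seq, 18.4 CPM (15.1 to 22.3) in 10x and 5.86 CPM (5.11 to 6.69) in C1. Endothelium had 2.36 CPM in Drop-seq (0.286 to 8.53), 0.271 in 10x and no read in C1. Ureteric epithelium had 1.88, 7.26 and 1.08 CPM, and the 10x value came wholly from the Calb1 cluster (10 UMIs). Cap mesenchyme had 2.68, 2.86 and 1.96 CPM and nephron epithelium 1.19, 0.873 and 2.97 CPM. The stromal interval lay above that of each of ureteric epithelium, cap mesenchyme, nephron epithelium and endothelium within every library. At matched depth 7.57% of 436 Drop-seq and 7.40% of 730 10x stromal cells had a Gli1 UMI (11.2% and 11.8% unthinned), against 0.980% and 0.289% of endothelial cells (1.96% and 0.261% unthinned), with median depths of 6636 and 6438 UMIs in stroma. In the fit over libraries the stroma-to-endothelium log2 difference was 5.68 (SE 1.21, n = 3, higher in 3 of 3, edgeR adjusted p = 0.00414). Against the other classes Gli1 did not pass, at 2.23 for ureteric epithelium (edgeR adjusted p = 0.0866), 2.18 for cap mesenchyme (0.0877) and 2.37 for nephron epithelium (0.0567).

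These calls turned on single libraries. In the fits without the C1 library, edgeR adjusted p for Gli1 was 0.00214 against ureteric epithelium, 0.000646 against cap mesenchyme and 5e-06 against nephron epithelium (log2 difference 3.95), and DESeq2 on all 3 libraries gave 0.0383 for the last. Without the 10x library the endothelial comparison gave 5.41 and an edgeR adjusted p of 0.0912, and with cells assigned by marker score and no clustering it gave 3.26 and 0.0577. Gli1 shares 62 exonic bases with Arhgap9 on the opposite strand and 265 with an antisense gene. In stroma Arhgap9 had 3 Drop-seq UMIs, 1 10x UMI and 15 C1 reads, and the antisense gene was not measured here, and their part in the Gli1 counts was not tested. At matched depth, 11.1% of 54 10x stromal cells with a Gli1 UMI also had one of Ptch1 (4.19 to 22.6%), against 12.3% of 676 without Gli1 (9.90 to 14.99%). Drop-seq had no Ptch1 UMI at this depth in the 33 stromal cells with Gli1 or the 403 without. For Hhip the Drop-seq shares were 6.06% of 33 cells (0.743 to 20.2%) against 0.496% of 403 (0.0602 to 1.78%). In 10x they were 1.85% against 1.33%. Only 1 or 2 cells had both genes, and the intervals overlap in both libraries. C1 had the opposite order for Hhip, again at matched depth. There 0 of 22 stromal cells with Gli1 had a Hhip read (0 to 15.4%), against 4 of 207 without (0.529 to 4.87%). These intervals overlap too, and the C1 counts for Ptch1 were the same.

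Hhip, whose product binds Hedgehog ligands and takes them out of play (ENSMUSG00000064325, chr8:79965851-80058006, minus strand), was low everywhere and highest in stroma. Stroma had 2.72 CPM in Drop-seq (10 UMIs), 2.41 in 10x (14 UMIs) and 5.40 in C1, where 118 of the 202 reads came from 1 cell and 5 cells held them all. Of these reads 120 fell in a C1 cluster of 64 cells led by Nts, Car3 and Penk (14.9 CPM). Ureteric epithelium and endothelium had no UMI in either droplet library and 1 read each in C1. At matched depth 0.917% of Drop-seq and 1.37% of 10x stromal cells had a Hhip UMI (2.01% and 1.59% unthinned), against none of 102 and 346 endothelial cells. The fitted stromal excess was 5.88 on the log2 scale over ureteric epithelium (SE 1.47, edgeR adjusted p = 0.0107), 6.05 over endothelium (SE 1.49, 0.00986), 4.42 over cap mesenchyme (SE 1.31, 0.0341) and 3.12 over nephron epithelium (SE 1.04, 0.0477). It was higher in stroma in 3 of 3 libraries each time. All 4 calls were lost without the Drop-seq library (edgeR adjusted p 0.0970 to 0.263) and without the 10x library (0.0980 to 0.225), while the fitted folds stayed positive (5.94 and 6.05 over ureteric epithelium, 6.30 and 6.09 over endothelium). Over all alternatives that could be fitted, the call held in 6 of 9 against ureteric epithelium, 6 of 9 against endothelium, 4 of 9 against cap mesenchyme and 2 of 9 against nephron epithelium. The classes at or near 0 make the fitted sizes depend on the fit's prior. Hhip shares 175 of its 9076 exonic bases with Gm27820 on the opposite strand, whose part in the Hhip counts was not tested. Without C1, Hhip did not pass the filter on low counts. Against nephron epithelium DESeq2 gave an adjusted p of 0.0738, and against cap mesenchyme the fold was 2.13 (edgeR adjusted p = 0.0819) when no minimum marker score was asked of a cluster, a setting added after the data were seen.

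**Figure D3:**
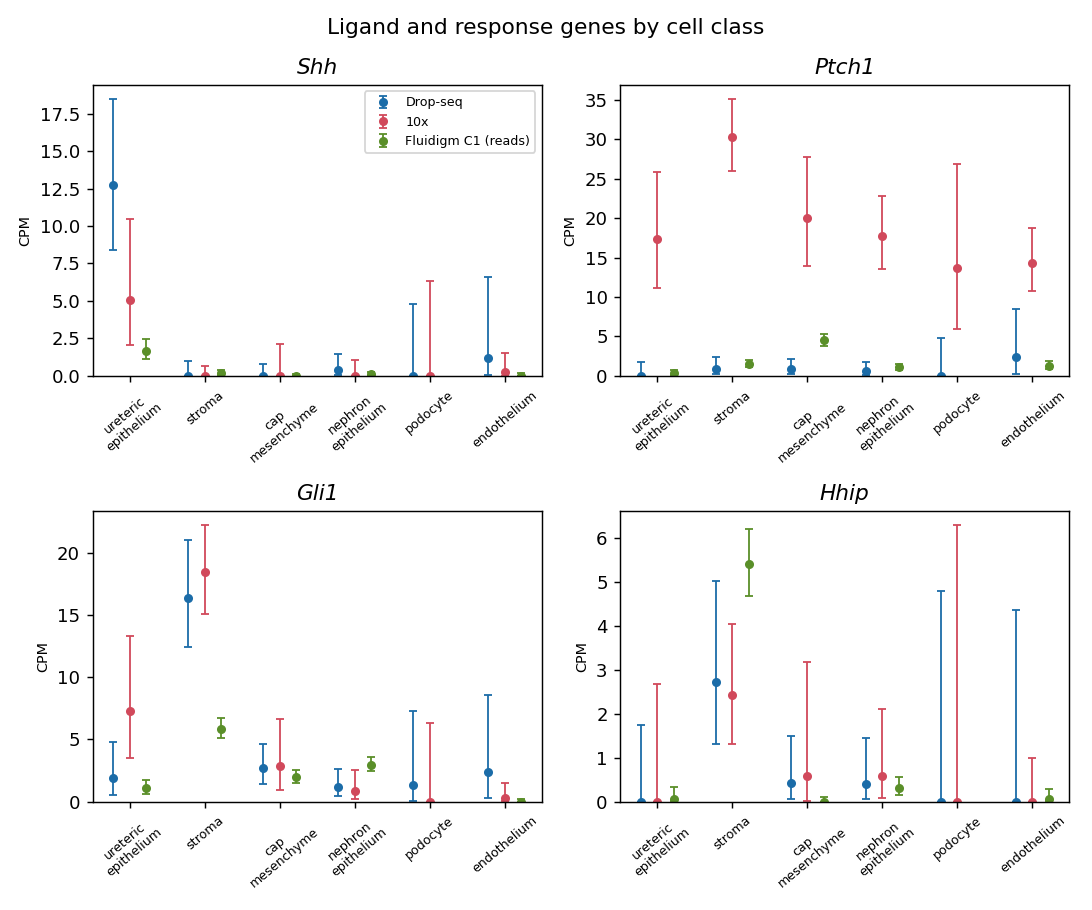
Level of Shh, Ptch1, Gli1 and Hhip in CPM (vertical axes) by class in the 3 libraries, points with 95% Poisson intervals; C1 has no podocyte class. Shh sits in ureteric epithelium and Gli1 and Hhip in stroma, while Ptch1 reaches 30.3 CPM in 10x stroma and 0.817 CPM in Drop-seq stroma.

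Boc, a co-receptor that helps cells bind Hedgehog ligand (ENSMUSG00000022687, chr16:44485049-44558897, minus strand), was higher in stroma than in each of the 4 other classes tested. Its stromal level was 23.2 CPM (18.5 to 28.6) by Drop-seq, 40.7 CPM (35.7 to 46.2) by 10x and 81.7 CPM (78.9 to 84.7) by C1. The next named class reached 7.02 CPM in Drop-seq, 7.26 CPM in 10x and 18.2 CPM in C1 (13 immune cells), and the unnamed clusters had 23.3 CPM in 10x and 21.2 CPM in C1. The stromal excess was 2.85 on the log2 scale over ureteric epithelium (SE 0.30, edgeR adjusted p = 1.4e-05), 2.07 over cap mesenchyme (SE 0.27, 0.000299), 2.57 over nephron epithelium (SE 0.27, 1.7e-05) and 2.59 over endothelium (SE 0.29, 2.6e-05), each in 3 of 3 libraries. Each of these calls held without any 1 library. Within stroma Boc was higher in the nephrogenic zone, the outer Foxd1 stroma next to the progenitors, than in other stroma in 3 of 3 libraries. In Drop-seq the zone had 35.7 CPM and other stroma 13.2 CPM, in 10x 47.5 and 27.6 CPM, and in C1 99.3 and 69.0 CPM. That difference of -0.88 on the log2 scale (SE 0.25, edgeR adjusted p = 0.199) did not pass.

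Gas1, a membrane-anchored co-receptor (ENSMUSG00000052957, chr13:60174405-60177365, minus strand), had another pattern, with its highest class level in cap mesenchyme. Cap mesenchyme had 417 CPM (398 to 435) in Drop-seq, 636 CPM (599 to 674) in 10x and 244 CPM (239 to 249.6) in C1, against 171, 172 and 103 CPM in stroma. Ureteric epithelium had 32.5, 29.8 and 68.3 CPM and endothelium 36.6, 6.77 and 39.6 CPM. In no library did the intervals of cap mesenchyme and stroma meet. The fitted difference of stroma from cap mesenchyme was -1.65 on the log2 scale (SE 0.61, 95% interval -3.04 to -0.27, lower in 3 of 3 libraries), which did not pass (edgeR adjusted p = 0.111). Stroma exceeded endothelium by 2.26 (SE 0.68, edgeR adjusted p = 0.0505, and 0.00353 with DESeq2), and without C1 by 3.49 (edgeR adjusted p = 0.0208). Over ureteric epithelium its excess was 1.596 (edgeR adjusted p = 0.136), 2.53 without C1 (0.0399), and DESeq2 gave 0.0410. Within 10x stroma the clusters ran from 54.5 CPM (42.2 to 69.2) in a nephrogenic-zone cluster led by Dkk1 and Fibin to 733 CPM (626 to 854) in 38 cells led by Mfap5, Dlk1 and Postn, genes of fibrous matrix. The level in those 38 cells was above that of cap mesenchyme in 10x, with overlapping intervals. Gas1 shares 589 of its 2961 exonic bases with a non-coding gene on the opposite strand.

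Cdon, another co-receptor gene and a relative of Boc (ENSMUSG00000038119, chr9:35421128-35507652, plus strand), passed in no comparison. Ureteric epithelium had 12.2 CPM (7.995 to 17.9) in Drop-seq and 13.8 CPM (8.30 to 21.5) in 10x, and stroma 6.26 and 7.07 CPM, with overlapping intervals. C1 had the opposite order, 9.79 CPM in ureteric epithelium and 24.3 in stroma. The fitted difference was -0.14 (95% interval -1.04 to 0.76).

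Smo, the transducer through which all Hedgehog ligands act (ENSMUSG00000001761, chr6:29735503-29761365, plus strand), was found in every class. In the order Drop-seq, 10x and C1 its stromal level was 61.3, 114 and 72.7 CPM, that of ureteric epithelium 50.8, 92.2 and 71.1 CPM, and that of endothelium 29.5, 50.7 and 46.9 CPM. Stroma exceeded endothelium by 0.80 on the log2 scale (SE 0.14, edgeR adjusted p = 0.00117) and nephron epithelium by 0.47 (SE 0.13, 0.0214), each in 3 of 3 libraries. Without the 10x library these were 0.77 (edgeR adjusted p = 0.0656) and 0.48 (0.198), and without Drop-seq the second was 0.37 (0.264). From ureteric epithelium the fitted difference was 0.20 (95% interval -0.09 to 0.49), which did not pass.

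Gli2, the main activating GLI factor of the pathway (ENSMUSG00000048402, chr1:118834132-119053619, minus strand), was shared by stroma and ureteric epithelium. In the same order its level was 9.53, 11.03 and 15.2 CPM in stroma and 6.12, 9.43 and 11.4 CPM in ureteric epithelium, with a fitted difference of 0.46 (95% interval -0.63 to 1.56). Cap mesenchyme had 1.03, 1.72 and 4.01 CPM, nephron epithelium 0.796, 1.45 and 1.63 CPM, and endothelium 0, 0.271 and 4.25 CPM. The stromal excess was 2.45 over cap mesenchyme (SE 0.56, edgeR adjusted p = 0.00973), 3.27 over nephron epithelium (SE 0.59, 0.00113) and 2.76 over endothelium (SE 0.59, 0.00422), each in 3 of 3 libraries. Against cap mesenchyme and endothelium these edgeR adjusted p were 0.142 and 0.0704 without Drop-seq and 0.0690 and 0.0901 without 10x, and without C1 the endothelial difference was 5.33. The ureteric Gli2 UMIs lay wholly in the Calb1 clusters of both droplet libraries, 13 of 13 in each. Tip-marked cells held 11 of them in Drop-seq (9.87 CPM, 4.93 to 17.7) and all 13 in 10x (17.3 CPM, 9.23 to 29.6). The 16 and 31 trunk-marked cells, which were shallower, had none (upper bounds 26.9 and 16.04 CPM). The tip and trunk intervals overlap in both libraries, so no order is shown. Cells with both kinds of marker had no Gli2 UMI. In C1, tip-marked cells had 12.5 CPM, the 9 cells with both kinds 32.2 CPM and the 4 trunk-marked cells no read.

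Gli3, the GLI factor best known as a repressor when ligand is absent (ENSMUSG00000021318, chr13:15463235-15730026, plus strand), was spread over the classes. Again in that order, stroma had 17.2, 22.8 and 32.8 CPM, cap mesenchyme 18.0, 13.1 and 33.0 CPM, and ureteric epithelium 12.2, 18.1 and 19.5 CPM. No comparison passed, and the fitted difference of stroma from cap mesenchyme was 0.13 (95% interval -0.45 to 0.70). Gli3 shares 188 of its 9589 exonic bases with Gm6556 on the opposite strand.

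**Figure D4:**
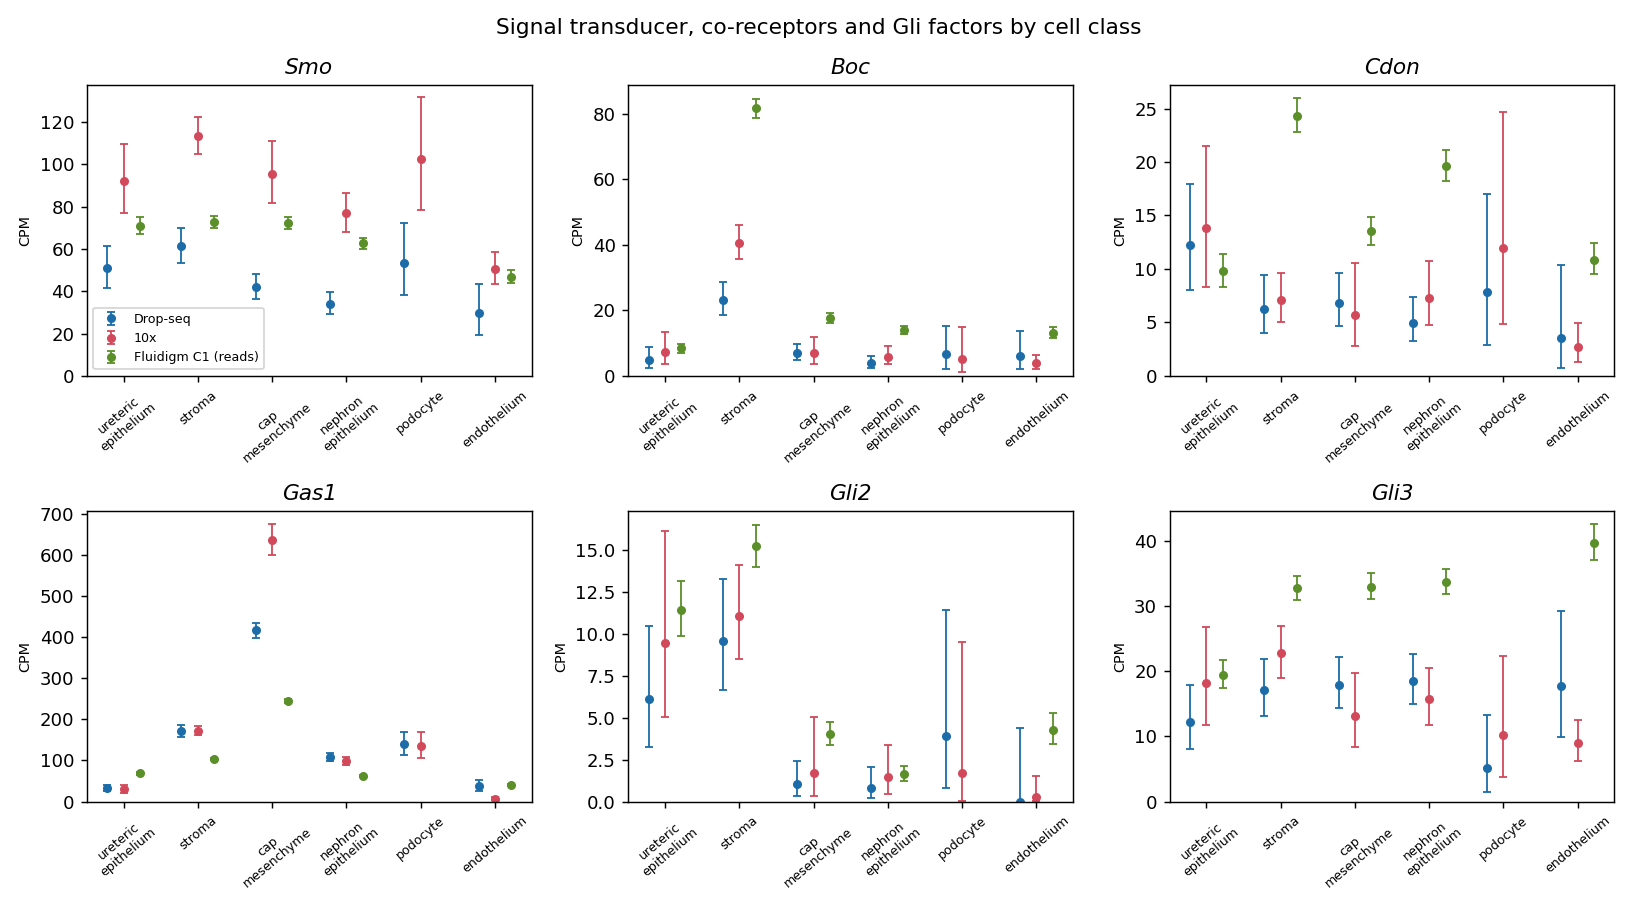
Level of Smo, Boc, Cdon, Gas1, Gli2 and Gli3 in CPM (vertical axes) by class in the 3 libraries, points with 95% Poisson intervals; C1 has no podocyte class. Boc is highest in stroma, Gas1 in cap mesenchyme, and Gli2 is lower in cap mesenchyme, nephron epithelium and endothelium than in stroma.

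Counted over the list, 9 of the 10 members passed the filter on low counts and were tested (all but Shh), in fits over 9404 genes for the 4 broad comparisons and 9334 for the stromal zones. The p-values set a class difference against the spread left between 3 libraries that differ in platform. Of the members, 2 were higher in stroma and none lower against ureteric epithelium, where 17.4% of all tested genes passed (7.43% higher and 9.97% lower). Genes that served to cluster or name cells (4291) are not among the tested genes, while members and listed genes were kept out of the clustering, so this background lacks many genes that vary most between classes. Against cap mesenchyme 3 were higher, where 13.9% of all tested genes passed (5.46% higher and 8.44% lower). Against nephron epithelium 4 were higher, where 18.7% passed (7.51% higher and 11.2% lower), and against endothelium 5, where 19.3% passed (7.57% higher and 11.8% lower). The 5 members were Boc, Gli1, Gli2, Hhip and Smo, and no member passed as lower in stroma; Gas1, lower than in cap mesenchyme in 3 of 3 libraries, did not pass. Other stroma and nephrogenic-zone stroma differed in 0 members by edgeR, 1 of them at an unadjusted p under 0.05, and in 0 by DESeq2, where 0.0643% of all tested genes passed by edgeR (0.0429% higher and 0.0214% lower in other stroma). The median log2 difference of the 9 members was 1.34, 0.31, 0.69 and 2.26 in the 4 broad comparisons in that order and -0.0028 between zones, against -0.03, -0.09, -0.06, -0.03 and -0.02 over all tested genes.

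**Figure D5:**
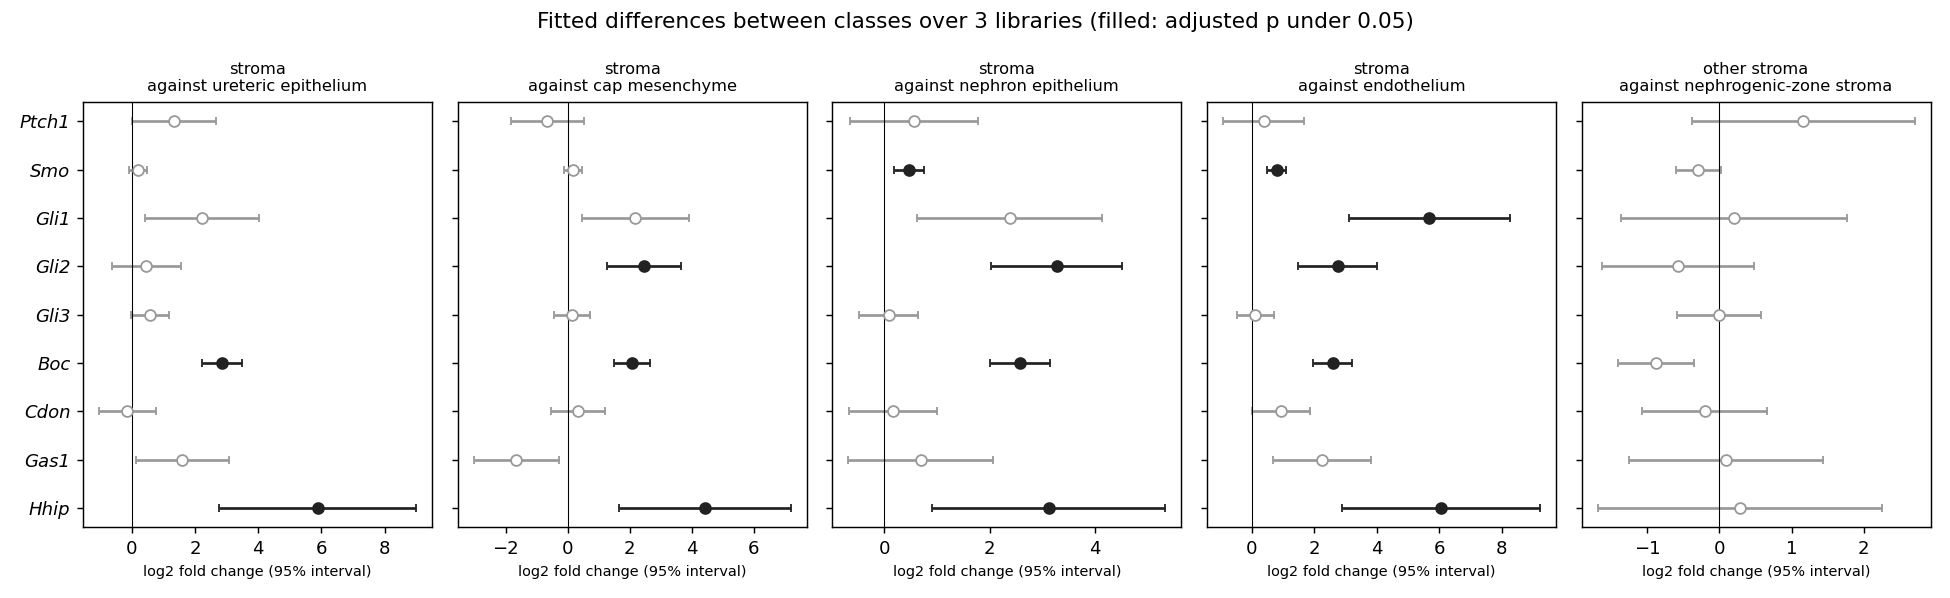
Fitted log2 fold change with its 95% interval (horizontal axes, scales differ between panels) of the 9 tested members in the 5 comparisons, with filled points where the edgeR adjusted p is under 0.05. Boc lies to the right of 0 in all 4 broad comparisons, and no filled point lies to the left of 0.

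The pathway's other genes, a list of 35 (34 of them in the tables) covering ligand release, ciliary transport and GLI processing, had few calls. Its counts of 3, 1, 2 and 4 of 32 in the broad comparisons do not exceed the share over all tested genes (17.4%, 13.9%, 18.7% and 19.3%). Of its 32 tested genes, 3 were higher in stroma than in ureteric epithelium and none lower: Spop, an adaptor that marks GLI proteins for breakdown, at 0.59 (SE 0.13), the kinase gene Gsk3b at 0.52 (SE 0.13) and Gpc3, a proteoglycan that binds Hedgehog, at 1.63 (SE 0.48). Against cap mesenchyme 1 was higher, the ciliary gene Ankmy2 at 1.298 (SE 0.26). Against nephron epithelium 2 were higher, Gpc3 at 1.84 and the protein kinase A subunit gene Prkar1a at 0.50. Against endothelium 3 were higher, Gpc3 at 3.03, the ciliary gene Evc2 at 1.503 and Scube1, of a family that helps release ligand, at 2.98, and 1 was lower, Dhh. None of 31 differed between zones (edgeR; 3 at an unadjusted p under 0.05). The list's median was 0.17, -0.01, 0.08, 0.38 and -0.0075 in the same order of comparisons.

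Genes that respond to Hedgehog in mesenchyme or depend on it in the ureter wall, a list of 11 of which 9 were tested, had 4 to 6 genes higher in stroma in the broad comparisons and 1 between zones. Of all tested genes, 7.43%, 5.46%, 7.51% and 7.57% were higher in the broad comparisons and 0.0429% between zones. Against ureteric epithelium 6 were higher and 1 lower: Acta2, smooth muscle actin, by 4.21 (SE 0.64), Tbx18 by 4.31 (SE 0.77), Foxl1, a forkhead factor gene, by 6.62 (SE 1.24), Bmp4 by 1.94 (SE 0.39), the cyclin gene Ccnd2 by 1.04 (SE 0.23) and the survival gene Bcl2 by 0.59 (SE 0.18), with the cyclin gene Ccnd1 at -0.91 (SE 0.25). Cap mesenchyme gave 5 higher and 1 lower, the last being Bcl2 at -1.52 (SE 0.17). Nephron epithelium and endothelium gave 4 higher and 1 lower each, Ccnd1 being the lower one in both (-1.69 and -0.83), with Acta2, Tbx18, Foxl1 and Ccnd2 higher. Between zones Acta2 alone passed, at 2.55 higher in other stroma (SE 0.41, edgeR adjusted p = 0.0389). The list's median was 1.28, 1.38, 1.38, 1.09 and 0.27. Several of these genes mark smooth muscle or stroma in their own right and were listed with earlier results of these data known.

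C1 cell names fall into a pair of groups, HT and E14, which the sources used here do not explain. Stroma exceeded ureteric epithelium in both for Boc (60.1 against 4.74 CPM in HT, 103 against 11.7 CPM in E14), Gli1 (8.71 against 0.748 CPM, 3.10 against 1.39 CPM) and Hhip (7.46 against 0 CPM, 3.42 against 0.116 CPM). The E14 intervals of Gli1 overlap slightly (2.36 to 4.003 and 0.718 to 2.43), and the E14 stromal Hhip reads, 65 in all, came from 1 of 124 cells. Other members turned between the groups in read level. Gli2 was lower in stroma than in ureteric epithelium in HT (9.69 against 18.3 CPM) and higher in E14 (20.5 against 4.98 CPM). Smo was higher in HT (73.9 against 53.00 CPM) and lower in E14 (71.6 against 87.8 CPM). The intervals do not overlap in any of these, but they count reads and do not settle the directions. The ureteric Gli2 reads came from 8 of 46 HT cells and 4 of 41 E14 cells. A Smo read was found in 71.5% of stromal and 73.9% of ureteric HT cells, and in 56.5% and 58.5% of E14 cells. All 28 ureteric Shh reads and none of the 7 stromal reads came from E14 cells. Stromal Ptch1 was 2.89 CPM in HT and 0.210 CPM in E14. The unnamed C1 cluster, which is in none of these classes, held 127 HT cells and 13 E14 cells.

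Genes with the most similar level across the 18 sums of 6 classes in 3 libraries (Pearson r of log2(CPM + 5), centred within each library, among genes with a mean of 10 CPM in some class) were, for Shh, Foxa1 (r = 0.97), Aqp4, Elf5, Spink8 and S100a14 (0.95). For Gli1 they were Gpm6b (0.91), Agtr2, Rarres2, Bet1l and Ror2 (0.90), and for Ptch1 Trub1 (0.77), Kctd18, Lclat1, Rab33b and Herc2 (0.72). The sums share their libraries and depth, and the values are descriptions. All 5 genes listed for Shh also served to cluster or name cells, as did Gpm6b, Agtr2 and Rarres2 for Gli1 and Kctd18 for Ptch1. In the Drop-seq ureteric sum, 19 Shh UMIs came from 1 barcode.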

How the data were processed

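Single-cell RNA of wild-type embryonic kidney was measured in 3 libraries. The authors deposited whole-number count tables per gene and cell, and the analysis starts from these raw counts (UMIs for Drop-seq and 10x, reads for C1). Alignment used Bowtie2 2.2.7 and 10x data Cell Ranger 1.3.0, with mouse build mm10, per the submitters' processing notes. The annotation, the counter for Drop-seq and C1 and its strand setting are not stated in the sources at hand. The deposited normalized tables were not used.

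Cells needed 500 genes and at most 20% mitochondrial counts (the C1 table lists no mitochondrial gene). Scrublet doublets were removed, 17 in 10x and 11 in C1. In Drop-seq the caller marked 0.255% of cells, under the 0.5% taken as working, and none was removed. Each library was clustered alone (scanpy 1.11.5; 2000 variable genes without the members and lists, 30 components, Leiden resolution 1). A cluster took the class of highest mean marker z score, at least 0.25 (set after seeing the clusters), with 3 or more markers in 5% of its cells and no other class ahead among its top 10 genes.

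Class sums of each library were tested in edgeR 4.0.16 (R 4.3.3; TMM, filterByExpr, robust quasi-likelihood F test, library as a block, two-sided, Benjamini-Hochberg, threshold 0.05), with p adjusted over all tested genes that served neither to cluster nor to name cells. A class sum needed 20 cells. The broad fit held 15 sums of 5 classes with 8 residual degrees of freedom and the zone fit 18 sums with 10. Sums of a library share its platform, which is where the pairing comes from, so the block is in the main design. Whether the cells of a library came from a single suspension is not known here. The scripts were tested on simulated data. Alternatives were DESeq2 1.42.0, other size factors, no filter, no block, other resolutions, marker scores in place of clusters, and each library left out. Shares were thinned to 4000 UMIs or 50000 reads per cell, with 2000 UMIs or 20000 reads as the alternative. Positions are from GENCODE M21 (GRCm38) and promoters from RefSeq (GRCm38.p6). A window was found for 7 of 10 members.

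All 10 members are described. List genes are named where they passed, up to 10 per comparison, and 5 similar genes for Shh, Ptch1 and Gli1. Members, lists and tests were chosen with earlier results of these data known.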

Additional observations from a re-analysis of the deposited data

Results flagged for a closer look

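Of the members, 2 moved in opposite directions in different libraries, with separate Poisson intervals in each, and the difference between libraries was not tested. C1 gave a direction in both, and its intervals count reads, which may be copies of the same molecule. The C1 direction is therefore less sure than its intervals make it look. Gli3 in stroma against endothelium had a log2 ratio of CPM of 1.35 in 10x (22.8 against 8.94 CPM) and -0.28 in C1 (32.8 against 39.8 CPM). Gas1 in other stroma against nephrogenic-zone stroma had a log2 ratio of -0.50 in Drop-seq (145 against 205 CPM) and 1.08 in C1 (133 against 62.8 CPM), with 0.06 in 10x. Platforms and libraries cannot be told apart here, since each platform is 1 library.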

How the results depend on the processing

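Among the calls of members, Boc held best: against ureteric and nephron epithelium it passed under all 12 alternatives, and against cap mesenchyme and endothelium under 11 of 12, failing only without the library block. The library is the replicate block that pairs the class sums. With no replicate block, 294, 7, 153 and 169 genes passed against ureteric epithelium, cap mesenchyme, nephron epithelium and endothelium and 0 between zones (1637, 1307, 1760, 1817 and 6 with it), and 1, 0, 1 and 0 members did. With classes taken from marker scores the genes were 617, 170, 469, 586 and 0, and the members 1 against ureteric epithelium and 2 against nephron epithelium. Leiden resolution 0.6 left 1 member against ureteric epithelium, and resolution 1.6 left 2 against nephron epithelium and 0 genes between zones. Between zones DESeq2 called 56 genes. Leaving out 1 library gave 604 to 1957, 281 to 1347, 613 to 2062, 438 to 2350 and 0 to 21 genes, and 1 to 4, 1 to 3, 2 to 4, 1 to 5 and 0 members; each lone pair of libraries leaves fewer sums to the fit.

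Directions turned only for members that passed in neither fit. Without the block these were Cdon against ureteric epithelium (0.053, and 0.021 by marker scores), Ptch1 against cap mesenchyme (0.35) and Gli3 between zones (0.036, and 0.0012 without a minimum marker score); Gli3 against cap mesenchyme was -0.0054 at resolution 1.6. With 1 library left out, Cdon ranged from -0.89 to 0.28 against ureteric epithelium and from -0.061 to 0.58 against cap mesenchyme, and Ptch1 from -1.07 to 0.47 against cap mesenchyme and from -0.52 to 0.80 against endothelium. Gli3 ranged from -0.082 to 0.32 against cap mesenchyme, -0.11 to 0.23 against nephron epithelium, -0.28 to 0.72 against endothelium and -0.16 to 0.090 between zones, Gli1 from -0.12 to 0.65 and Gas1 from -0.21 to 0.43 between zones. The cause was not tested. The zone fit at resolution 0.6 was not run, since Drop-seq then has no zones. Of 150 class levels, 17 to 31 moved beyond their Poisson intervals under other resolutions or marker scores, 8 without a minimum marker score and 3 without the 5 barcodes of highest count, and the last 2 settings were chosen after seeing the data. Thinned to 2000 UMIs, 46 of 100 shares of cells moved beyond their intervals, and to 20000 reads 20 of 50. Gli1 had a UMI in 4.02% of Drop-seq and 4.04% of 10x stromal cells at 2000 UMIs, and in 0% and 0.261% of endothelial cells.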

Other observations

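The members were also read in the 2 clusters left unnamed and in a mural cluster counted within stroma. The C1 cluster of 140 cells, led by Kpna2, Kcnj8, Car3, Tcf21 and Ecm1, had Boc at 21.2 CPM, Gas1 at 91.3 CPM, Gli1 at 1.08 CPM, Hhip at 2.68 CPM and Gli2 at 12.25 CPM. The 10x cluster of 71 cells, led by haemoglobin genes, Akr1b7 and Kcnj8, had Boc at 23.3 CPM (12.01 to 40.6), Smo at 85.3 CPM and Ptch1 at 7.75 CPM (2.11 to 19.8), with no Hhip UMI. The 10x mural cluster of 55 cells was led by Mgp and Rgs5, pericyte and vessel wall genes, and had Gli1 at 26.7 CPM (11.5 to 52.7), Ptch1 at 20.1 CPM (7.36 to 43.7) and no Hhip, with Acta2 at 1334 CPM and Tbx18 at 23.4 CPM. The stromal cluster of 59 cells had Acta2 at 1205 CPM and Tbx18 at 395 CPM.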
